A study of Mus musculus with 5 samples.

Results

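The 9 genes described here, Cer1, Lefty1, Chrd, Nog, Gsc, Lhx1, Foxa2, Hhex and Sox17, mark the anterior primitive streak, the organizer that forms from it and the endoderm. They were taken by name from a table of 23951 genes, and all 9 were found there. Their RNA was measured in 5 mouse libraries, 1 per group, all derived from the E14 embryonic stem cell (ESC) line. In the first group ESCs grew with leukaemia inhibitory factor (LIF) and 15% serum, and in the second they grew in a basal medium with LIF plus BMP-4 (10 ng/ml). The other 3 groups were epiblast stem cells made from ESCs (EpiSCs), all kept in N2B27 medium with FGF2 at 12 ng/ml and Activin A at 20 ng/ml on serum-coated plates. Of these, 1 was left untreated, 1 received BMP-4 at 10 ng/ml for 1.5 h and 1 for 24 h. The study asked how bone morphogenetic protein (BMP) signals act in the naive state, for which ESCs stand, and in the primed state, for which EpiSCs stand. All EpiSC groups, the untreated one included, were thus exposed to Activin A, and the basal medium of the ESCs with BMP-4 is named in the labels only by examples. With 1 library per group there is no replicate check on any difference, and no p-value is given.

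In the gastrulating mouse embryo the anterior end of the streak is formed under high Nodal signalling and the posterior end under BMP and Wnt signalling. Activin A acts through the same receptors and Smads as Nodal. The anterior end gives rise to the organizer (the node), the prechordal mesoderm and the definitive endoderm, and it secretes proteins that block BMP, Nodal and Wnt signals around it. Several of the same genes, among them Cer1, Lefty1, Lhx1, Foxa2 and Hhex, are also used by the anterior visceral endoderm, an extraembryonic tissue.

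The labelled cell types were checked against marker genes. The 8 naive markers summed to 1770 FPKM (fragments scaled to transcript length and to library size) in ESCs with serum and 1543 FPKM in ESCs with BMP-4, and to between 4.36 and 4.81 FPKM in the EpiSC libraries. The 7 primed markers summed to 70.2 and 77.7 FPKM in the ESC libraries and to between 532 and 733 FPKM in EpiSCs. The libraries held about 8.47 M to 13.3 M reads (M, mega), as estimated from what 1 read adds to a low value, and the 24 h library was the deepest. Between 10478 and 10779 genes reached 1 FPKM in each library. The interval in parentheses after a value is the one deposited with it, and covers 1 library, not the spread between cultures. It is wide: between 5 and 20 FPKM its upper bound lay a median of 75% above the value in ESCs with serum.

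Upstream sequence was looked up in a RefSeq table (build GRCm38.p6), which gave a window for 6 of the 9 genes. The 250 bases before the annotated start are shown for 4 genes that were at least 2-fold lower after 24 h of BMP-4 (Cer1, Gsc, Lhx1 and Foxa2) and, for contrast, for Hhex, whose deposited intervals overlapped in all libraries. They lie on GRCm38.p6 at chr4:82885152-82885401 (minus strand), chr12:104473237-104473486 (minus), chr11:84525535-84525784 (minus), chr2:148046970-148047219 (minus) and chr19:37434591-37434840 (plus). Each is written 5′ to 3′ towards the start, with any match to the motifs named after them in capitals. The window of Chrd, also at least 2-fold lower after 24 h, and those of further annotated starts of Foxa2 are not printed.

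Cer1: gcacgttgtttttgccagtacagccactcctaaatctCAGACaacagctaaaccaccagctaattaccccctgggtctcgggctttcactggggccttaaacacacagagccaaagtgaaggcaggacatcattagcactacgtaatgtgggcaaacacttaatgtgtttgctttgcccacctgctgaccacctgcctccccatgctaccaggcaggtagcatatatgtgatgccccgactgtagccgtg

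Gsc: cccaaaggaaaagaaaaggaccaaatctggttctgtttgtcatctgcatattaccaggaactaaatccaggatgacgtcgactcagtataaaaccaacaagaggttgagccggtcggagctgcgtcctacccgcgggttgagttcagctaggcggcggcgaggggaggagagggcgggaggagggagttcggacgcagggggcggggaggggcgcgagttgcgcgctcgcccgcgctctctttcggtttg

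Lhx1: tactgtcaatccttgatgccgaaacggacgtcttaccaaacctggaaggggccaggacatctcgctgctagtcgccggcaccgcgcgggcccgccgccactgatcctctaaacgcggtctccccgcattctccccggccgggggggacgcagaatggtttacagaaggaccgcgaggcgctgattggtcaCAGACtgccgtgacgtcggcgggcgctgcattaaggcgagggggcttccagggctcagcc

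Foxa2: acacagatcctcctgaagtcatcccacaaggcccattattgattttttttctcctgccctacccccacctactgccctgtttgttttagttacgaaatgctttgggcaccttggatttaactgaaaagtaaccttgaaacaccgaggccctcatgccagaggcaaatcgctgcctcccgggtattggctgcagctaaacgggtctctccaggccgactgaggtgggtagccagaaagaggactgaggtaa

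Hhex: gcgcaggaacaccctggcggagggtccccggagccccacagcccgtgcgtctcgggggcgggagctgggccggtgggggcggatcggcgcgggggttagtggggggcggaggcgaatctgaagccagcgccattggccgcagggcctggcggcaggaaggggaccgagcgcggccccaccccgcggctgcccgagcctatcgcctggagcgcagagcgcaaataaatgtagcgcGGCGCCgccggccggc

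The motifs searched, on both strands, were AATNNACA (Foxh1, the DNA-binding partner of Nodal Smads), CAGAC (Smad proteins), GGATTA (homeodomain proteins of the Otx and Gsc type), CTTTGAT (Tcf and Lef factors of the Wnt pathway), TCACACCT (T-box factors) and GGCGCC (Smad1 and Smad5, the Smads of BMP signalling). Each printed window held at most 1 match, so no matches overlapped in them. CAGAC was present 209 to 213 bases before the start of Cer1 and 56 to 60 bases before that of Lhx1, and 42.2% of 32851 windows of this length in the table held it. GGCGCC, which reads the same on both strands, lay 11 to 16 bases before the start of Hhex, and 9.59% of all windows held it. It was also found in the windows of Chrd and of 1 further annotated start of Foxa2, which are not printed. The other 4 motifs had no match in any of the 8 windows of these genes. Their shares over all windows were 10.9% for AATNNACA, 6.25% for GGATTA, 3.21% for CTTTGAT and 1.12% for TCACACCT. In base composition the Cer1 window held 51.6% G and C with 5 CpG dinucleotides, the Gsc window 59.2% with 22, and the Hhex window 76% with 32, beside a median of 52.4% and 6 over all windows. The Lhx1 window held 64.8% with 26 and the printed Foxa2 window 50.8% with 6. Of the windows not printed, Chrd held 78% with 28, and the Foxa2 ones 54.4% with 13 and 67.2% with 20. Hhex was thus not alone in being rich in G, C and CpG.

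In untreated EpiSCs 8 of the 9 genes stood above 1 FPKM, and Lefty1, Gsc and Cer1 together made up 73.4% of their summed 192 FPKM. The sum was 16.5 FPKM in ESCs with serum and 13.6 FPKM in ESCs with BMP-4, where Hhex was the highest of the 9. It was 126 FPKM after 1.5 h of BMP-4 and 32.9 FPKM after 24 h. These are FPKM, which are per length, so levels can be set beside each other between genes. In bulk RNA, fewer cells with a transcript and less transcript per cell cannot be told apart.

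**Figure D1:**
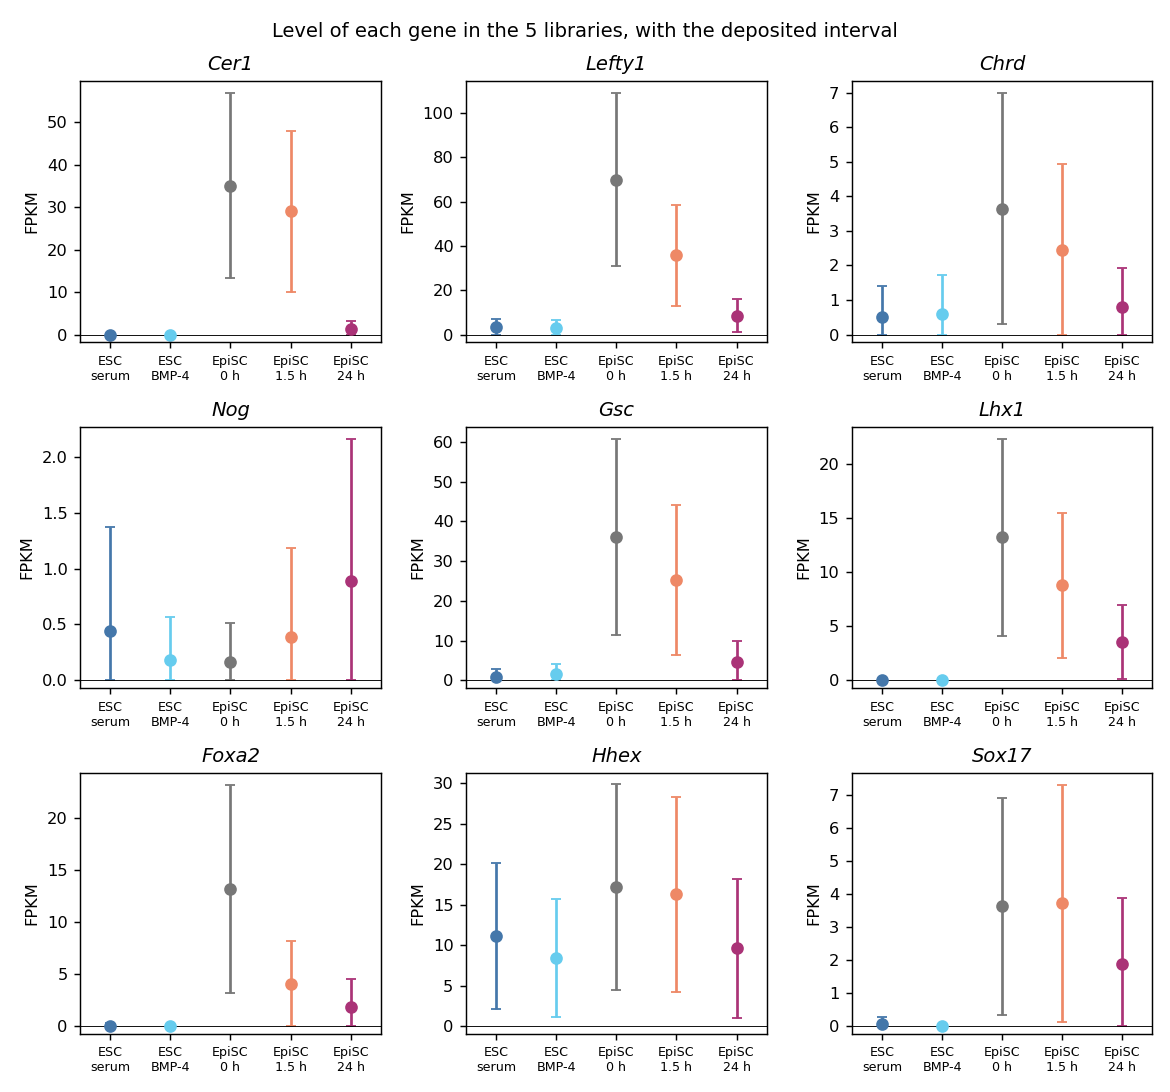
FPKM (vertical axes, linear, each gene on its own scale) of the 9 genes in the 5 libraries, 1 point per library, with bars for the interval deposited with each value. Cer1, Lefty1, Gsc, Lhx1, Foxa2, Chrd and Sox17 stood higher in untreated EpiSCs than in both ESC libraries, Hhex was between 8.4 and 17.2 FPKM in all 5, and Nog stayed under 1 FPKM.

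The secreted antagonists held both the highest and the lowest genes of the group. Cer1 (Cerberus, a blocker of Nodal and BMP proteins) lies on mm9 chromosome 4, 82527655 to 82531055. It was listed at 0 in both ESC libraries. It stood at 35 FPKM (13.2 to 56.8) in untreated EpiSCs, 29.1 (10.1 to 48) after 1.5 h and 1.31 (0 to 3.1) after 24 h. The first 2 EpiSC libraries were thus high and the 24 h library low, with its interval apart from theirs. Taken as reads over its 1739-nt transcript, these values amount to roughly 595, 550 and 30 reads, and a count of 0 in the ESC libraries allows up to 0.204 FPKM with serum and 0.2 FPKM with BMP-4, for counting error only and at the estimated depth.

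Lefty1, which encodes a secreted inhibitor of Nodal signalling, lies on chromosome 1, 182865170 to 182868532. It stood at 3.34 FPKM (0 to 7.17) in ESCs with serum and 2.74 (0 to 6.64) in ESCs with BMP-4. In EpiSCs it stood at 69.9 FPKM (31.1 to 109) untreated, 35.7 (13.1 to 58.4) after 1.5 h and 8.42 (0.916 to 15.9) after 24 h. It was the highest of the 9 genes in the first 2 EpiSC libraries, though its interval overlapped that of the next gene in both. Its 24 h interval overlapped those of both ESC libraries and lay under that of untreated EpiSCs.

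Lefty2, its paralog 35.9 kb away on the same chromosome, showed another pattern. It stood at 8.05 and 4.04 FPKM in ESCs with serum and with BMP-4, and at 4.59, 5.19 and 2.82 FPKM in EpiSCs at 0, 1.5 and 24 h. All of its intervals in compared libraries overlapped. Thus the Lefty2 value was above that of Lefty1 in both ESC libraries and below it in the 3 EpiSC libraries. The intervals of Lefty1 and Lefty2 lay apart only in the untreated and 1.5 h libraries, so their order in ESCs and at 24 h is not resolved. Of the 1589 stretches of 32 nt in the longest Lefty1 transcript (GENCODE M21), 24.5% also occur in other genes, mostly in Lefty2, so part of the reads could have been assigned to either gene and the FPKM of both is uncertain to that extent.

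Chrd (Chordin, which holds BMP proteins away from their receptors) lies on chromosome 16, 20724527 to 20742457, and was expressed at a low level. It stood at 0.495 FPKM (0 to 1.41) and 0.607 (0 to 1.73) in ESCs with serum and with BMP-4, and at 3.64 (0.302 to 6.99), 2.46 (0 to 4.95) and 0.811 (0 to 1.92) in EpiSCs at 0, 1.5 and 24 h. The untreated and 1.5 h libraries were the highest, but every interval overlapped the others. The locus given for Chrd in the file overlaps that of Thpo, which stood between 0.149 and 0.81 FPKM, and the libraries were directional, but it is left unstated whether strand was used in counting, so the reads of the pair may not be separated.

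Nog (Noggin, another protein that sequesters BMP) lies on chromosome 11, 89161952 to 89163873. It stayed under 1 FPKM everywhere and is the only gene of the 9 whose mean did not reach 1 FPKM. Its values were 0.443 FPKM in ESCs with serum, 0.181 in ESCs with BMP-4, and 0.164, 0.392 and 0.887 in EpiSCs at 0, 1.5 and 24 h. Over the 1922 nt of its locus these correspond to roughly 7, 3, 3, 8 and 23 reads. The highest value was thus the 24 h one, where Cer1, Lefty1 and Chrd were lowest among EpiSCs, but all intervals of Nog start at 0 and overlap.

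Among the transcription factors, Gsc (Goosecoid, a homeobox repressor that marks the organizer) lies on chromosome 12, 105709419 to 105711446. It stood at 0.9 FPKM (0 to 2.76) in ESCs with serum and 1.71 (0 to 4.15) in ESCs with BMP-4. In EpiSCs it stood at 36 FPKM (11.3 to 60.8) untreated, 25.3 (6.4 to 44.1) after 1.5 h and 4.58 (0 to 9.88) after 24 h. By its 1268-nt transcript that is roughly 10, 19, 447, 348 and 77 reads in the same order. The untreated interval lay apart from the 24 h interval and from both ESC intervals.

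Lhx1 (Lim1, a LIM homeobox factor needed for head organizer function) lies on chromosome 11, 84332881 to 84339036, and was listed at 0 in both ESC libraries. In EpiSCs it stood at 13.2 FPKM (4.05 to 22.3), 8.76 (2.07 to 15.5) and 3.53 (0.118 to 6.95) at 0, 1.5 and 24 h. These 3 intervals overlapped each other. Lhx1 is the only gene of the 9 whose 24 h interval lay apart from those of the ESC libraries, and those were listed as 0 to 0.

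Foxa2, a forkhead factor of the node, the notochord and the endoderm, lies on chromosome 2, 147868613 to 147872705. It was listed at 0.0583 FPKM in ESCs with serum and at 0 in ESCs with BMP-4. In EpiSCs it stood at 13.2 FPKM (3.2 to 23.2) untreated, 4.06 (0 to 8.14) after 1.5 h and 1.86 (0 to 4.55) after 24 h. It was therefore close to Lhx1 in untreated EpiSCs and below it at 1.5 h, with overlapping intervals in both libraries. Its EpiSC intervals overlapped each other.

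Hhex, a homeobox gene of the anterior endoderm and of the later liver and thyroid, lies on chromosome 19, 37509331 to 37515221, and was the member with clear expression in ESCs. It stood at 11.2 FPKM (2.16 to 20.2) with serum and 8.4 (1.12 to 15.7) with BMP-4, and at 17.2 (4.51 to 29.9), 16.3 (4.26 to 28.3) and 9.64 (1.05 to 18.2) in EpiSCs at 0, 1.5 and 24 h. All 5 intervals overlapped, and the 24 h value lay between those of the ESC libraries.

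Sox17, an HMG-box factor that drives endoderm formation, lies on chromosome 1, 4481009 to 4487435. It was nearly absent from ESCs, at 0.0705 FPKM (0 to 0.275) with serum and listed at 0 with BMP-4. In EpiSCs it stood at 3.63 FPKM (0.346 to 6.91) untreated, 3.72 (0.125 to 7.31) after 1.5 h and 1.87 (0 to 3.88) after 24 h. The untreated interval lay just above the serum one, with a ratio of 1.26 between the nearest bounds, while the EpiSC intervals overlapped each other.

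Ranked by level, untreated EpiSCs held Lefty1, Gsc, Cer1, Hhex, Foxa2, Lhx1, Chrd, Sox17 and Nog, from high to low. Neighbours in that order had overlapping intervals, so the order between adjacent genes is not resolved in any of the 5 libraries. After 24 h the order was Hhex, Lefty1, Gsc, Lhx1, Sox17, Foxa2, Cer1, Nog and Chrd: Cer1 went from the third place to the seventh and Hhex from the fourth to the first. In both ESC libraries the order of the highest 5 genes was Hhex, Lefty1, Gsc, Chrd and Nog.

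For the comparisons between libraries, the difference of log2(FPKM + 1) was used, which understates the distance between low values, and a gene counts as higher or lower where FPKM + 1 differs at least 2-fold. Untreated EpiSCs were first set against the ESC libraries, primed against naive. Against ESCs in LIF and serum, 7 of the 9 genes were higher and 0 lower, and 6 of the 7 had intervals apart. Of 11007 genes compared, 11.6% were higher and 9.55% lower, and 2.68% were higher and 2.84% lower with intervals apart. Cer1, Lhx1, Foxa2, Sox17 and Chrd stood under 1 FPKM in both ESC libraries and enter the comparison only through their EpiSC values, a choice that favours higher over lower values among them. Lefty1 was 16.3-fold and Gsc 19.5-fold higher on the FPKM + 1 scale (differences of 4.03 and 4.28 on the log2 scale), with the nearest bounds still 4.34 and 4.07 times apart. Foxa2 was 13.4-fold, Sox17 4.32-fold and Chrd 3.11-fold higher, the last with overlapping intervals. Against a pseudocount of 5 in place of 1, Chrd (0.65 on the log2 scale) and Sox17 (0.77) lay inside the 2-fold limit. Hhex was 1.49-fold higher and Nog 1.24-fold lower, both inside the 2-fold limit.

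Against ESCs in LIF and BMP-4 the same comparison again gave 7 of the 9 genes higher and 0 lower, 6 of them with intervals apart. Of the 11007 genes, 11% were higher and 10% lower, and 2.39% and 3.11% were so with intervals apart. The untreated EpiSC library is shared by both comparisons. Lefty1 was 19-fold, Gsc 13.6-fold and Chrd 2.89-fold higher on the FPKM + 1 scale, and Hhex was 1.94-fold higher. With a pseudocount of 5, Chrd (0.62 on the log2 scale) and Sox17 (0.79) again lay inside the limit, and with a pseudocount of 0.1 or upper quartile scaling Hhex passed it (1.02 in both). The ESC libraries themselves did not differ by 2-fold in any of the 9 genes, beside 2.61% of genes higher and 1.28% lower with BMP-4 among 11010 (0.163% and 0.0363% with intervals apart). Gsc showed the largest log2(FPKM + 1) distance of the 9, at 0.9 and 1.71 FPKM with overlapping intervals (log2 difference of 0.51), and Hhex the next among genes above 1 FPKM on average, at 11.2 and 8.4 FPKM (-0.37).

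In EpiSCs given BMP-4 for 1.5 h, 1 of the 9 genes was lower and 0 higher. Foxa2 was 2.81-fold lower on the FPKM + 1 scale, with overlapping intervals, and the other 8 genes lay within 2-fold. Of the 11007 genes compared, 0.182% were lower and 0.236% higher (0% and 0.0273% with intervals apart). Lefty1 stood just inside the limit at 51.1% of its untreated FPKM (1.93-fold lower on the FPKM + 1 scale). As shares of the untreated FPKM, Foxa2 was at 30.7%, Lhx1 at 66.4%, Chrd at 67.4%, Gsc at 70.1%, Cer1 at 83.1%, Hhex at 94.8% and Sox17 at 102%. All of these rest on intervals that overlap.

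After 24 h, 6 of the 9 genes were lower than in untreated EpiSCs and 0 higher, while 0.527% of 11006 genes were lower and 0.654% higher. The 9 genes were proposed with this result in view, so their count describes them and tests nothing. Cer1 was 15.6-fold, Lefty1 7.53-fold and Gsc 6.63-fold lower on the FPKM + 1 scale, and these 3 are the whole 0.0273% of genes that were lower with intervals apart, beside 0.0545% that were higher so. Between the nearest bounds a factor of 4.24 remained for Cer1, 1.95 for Lefty1 and 1.14 for Gsc, so Gsc was only just separated. Foxa2 (4.98-fold), Lhx1 (3.13-fold) and Chrd (2.56-fold) were lower with overlapping intervals, and with a pseudocount of 5 Chrd lay inside the limit (-0.57 on the log2 scale). Hhex (1.71-fold lower) and Sox17 (1.61-fold lower) lay within the 2-fold limit, and so did Nog, at 1.62-fold higher.

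**Figure D2:**
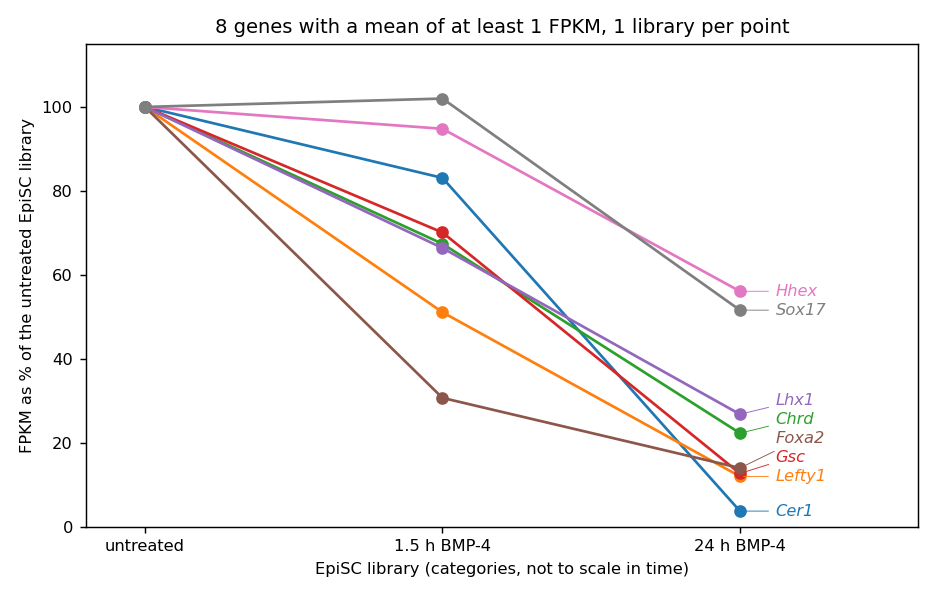
FPKM after 1.5 h and 24 h of BMP-4 as a percentage of the untreated EpiSC library (vertical axis), for the 8 genes whose mean reached 1 FPKM. Each point is 1 library. At 1.5 h Foxa2 was lowest (30.7%), and at 24 h Cer1 was lowest (3.74%) while Hhex (56.1%) and Sox17 (51.6%) stayed highest.

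Set by time, the genes did not keep 1 order. Cer1 was still at 83.1% of its untreated FPKM at 1.5 h and at 3.74% at 24 h, whereas Foxa2 was at 30.7% and then 14%. Lefty1 was at 51.1% and 12%, Gsc at 70.1% and 12.7%, Lhx1 at 66.4% and 26.8%, and Chrd at 67.4% and 22.3%. All these shares have the same untreated library as their base, so an error in that value would move both shares of a gene together. The direct comparison of 24 h with 1.5 h does not use that library. In it 4 of the 9 genes were lower and 0 higher, beside 0.427% lower and 0.609% higher among 11007 genes: Cer1 (13-fold on the FPKM + 1 scale, intervals apart), Gsc (4.7-fold), Lefty1 (3.9-fold) and Lhx1 (2.15-fold), the last 3 with overlapping intervals. With intervals apart also required, 0.0182% of all genes were lower and 0.0363% higher. A pseudocount of 5 put Lhx1 inside the limit (-0.69 on the log2 scale), and one of 0.1 put Foxa2 (-1.09) and Chrd (-1.49) past it. Foxa2 (1.77-fold lower) and Chrd (1.91-fold lower) lay inside the limit, as did Hhex at 1.63-fold and Sox17 at 1.64-fold lower.

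**Figure D3:**
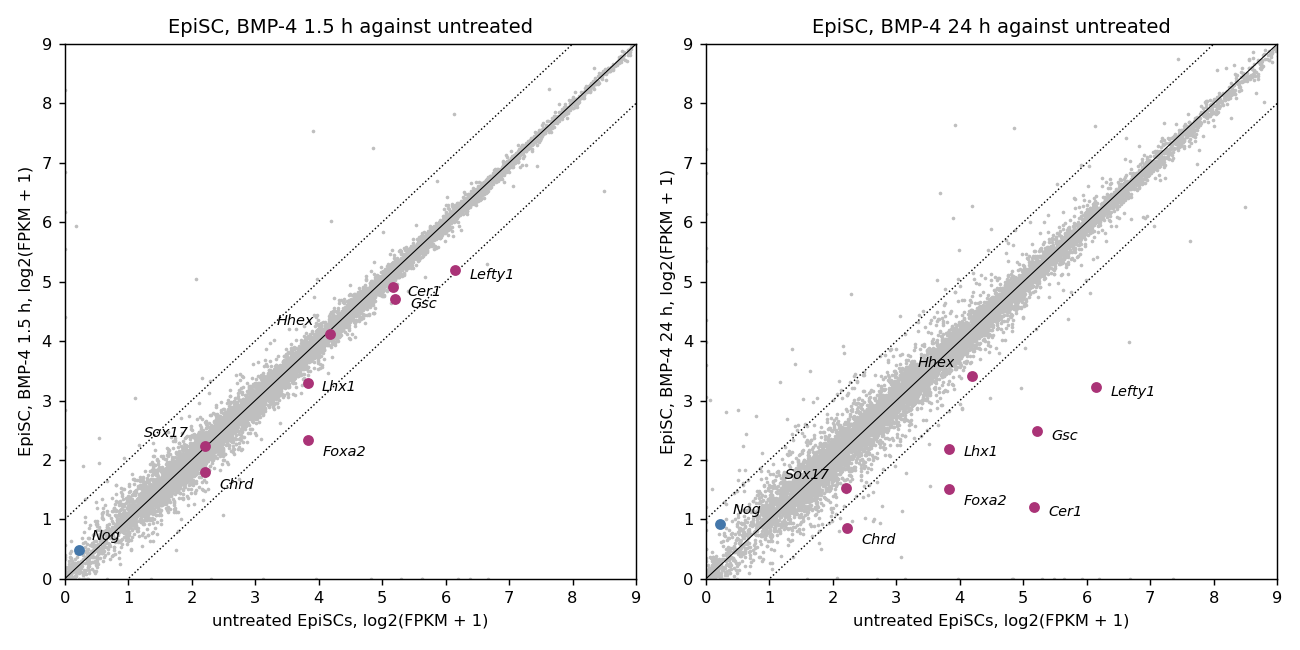
Log2(FPKM + 1) in untreated EpiSCs (horizontal) and after 1.5 h (left) or 24 h (right) of BMP-4 (vertical), with 1 grey point per gene of those compared, axes ending at 9, a solid line for equal values and dotted lines for 2-fold. Purple points are the 8 genes above a mean of 1 FPKM and the blue point is Nog; Foxa2 lies under the lower dotted line at 1.5 h, and 6 genes lie under it at 24 h.

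The 24 h values were also set beside those of ESCs. They were above those of ESCs with serum for 8 of the 9 genes, all but Hhex, and above those of ESCs with BMP-4 for 9 of 9. The intervals overlapped for 8 of 9 in both cases, the exception being Lhx1. Gsc, for example, stood at 4.58 FPKM after 24 h and at 0.9 and 1.71 FPKM in ESCs.

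Other genes of the same region and pathway were followed through 6 lists, and counts of each are given for members above a mean of 1 FPKM. In the Nodal pathway list, 4 of 15 genes were higher and 2 lower when untreated EpiSCs were set against ESCs with serum (median log2 difference 0.62, and -0.01 for all genes compared), beside 11.6% and 9.55% of all genes. Intervals were apart for 0 of the 4 higher genes and for both lower ones, Gdf3 and Pcsk6. After BMP-4, 0 of the 15 were higher and 0 lower at 24 h (median 0.08, and 0.00 for all genes), and likewise at 1.5 h (0.07). Among all genes 0.654% were higher and 0.527% lower at 24 h, and 0.236% and 0.182% at 1.5 h. With shares this low, counts of 0 do not set the list apart from other genes. Nodal stood at 27.9, 21.3 and 31.6 FPKM at 0, 1.5 and 24 h, its coreceptor gene Tdgf1 (Cripto) at 68.1, 69.5 and 77 FPKM, and Foxh1 at 20.6, 22.5 and 22.6 FPKM. These ligand, coreceptor and effector RNAs were within 2-fold in the EpiSC libraries, as were most genes, and with 1 library each a smaller difference cannot be seen.

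Of the organizer and axial mesoderm list, 7 of 12 genes could be compared. Against ESCs with serum 5 were higher, 3 of them with intervals apart, and 0 lower (median 1.65). Of all genes 11.6% were higher, 2.68% with intervals apart, and 9.55% lower. Eomes, Fgf8 and Mixl1 stood at or below 1.06 FPKM in both ESC libraries. They reach the mean only through EpiSC values, a choice that favours higher over lower values. At 1.5 h of BMP-4 0 of the 7 were higher and 0 lower, beside 0.236% and 0.182% of all genes. After 24 h 1 was lower and 0 higher (median 0.25), beside 0.527% and 0.654% of all genes. The lower one was Otx2, a homeobox gene of the anterior epiblast and head, at 30.1, 28.4 and 8.21 FPKM at 0, 1.5 and 24 h with overlapping intervals. Eomes, a T-box gene that acts in the anterior streak and endoderm, stood at 23.9, 19.7 and 28.7 FPKM, Mixl1 at 2.8, 1.62 and 3.52 FPKM, and Fgf8 at 61.2, 61.4 and 82 FPKM. These 3 genes lay within 2-fold of the untreated library at 24 h. The notochord and node genes Shh and Noto were at or below 0.135 FPKM in all libraries.

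Among definitive endoderm genes, 6 of 10 could be compared, and against ESCs with serum 4 were higher, 1 of them with intervals apart, and 1 lower (median 1.26). Of all genes 11.6% were higher, 2.68% with intervals apart, and 9.55% lower. The 4 higher genes, Foxa1, Cxcr4, Gata4 and Gata6, stood under 1 FPKM in both ESC libraries. They reach the mean only through EpiSC values, a choice that favours higher over lower values. At 1.5 h 0 of the 6 were higher and 0 lower (0.236% and 0.182% of all genes). After 24 h 1 was lower and 0 higher (list median -0.60), beside 0.527% and 0.654% of all genes. The lower one was Trh (10.6 and 1.94 FPKM, intervals overlapping). Trh was itself higher in ESCs, at 45.5 and 50.5 FPKM, so it did not follow the pattern of Foxa2 and Sox17. The chemokine receptor gene Cxcr4 stood at 4.92, 4.92 and 1.98 FPKM at 0, 1.5 and 24 h and Foxa1 at 3.59, 2.17 and 1.79 FPKM, both within the 2-fold limit.

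Among other secreted BMP and Wnt inhibitors, 9 of 18 could be compared. Against ESCs with serum 6 were higher, 1 of them with intervals apart, and 0 lower (median 1.26). Of all genes 11.6% were higher, 2.68% with intervals apart, and 9.55% lower. Frzb and Nbl1, among the 6, stood under 1 FPKM in both ESC libraries and reach the mean only through EpiSC values. At 1.5 h 0 of the 9 were higher and 0 lower, beside 0.236% and 0.182% of all genes. After 24 h 2 were lower and 0 higher (median -0.10), beside 0.527% and 0.654% of all genes. The lower 2 were the Wnt antagonist Sfrp1 (21.2 and 7.23 FPKM) and Shisa2 (3.26 and 0.753 FPKM), both with overlapping intervals. Follistatin (Fst), an Activin and BMP antagonist, stood at 28.2 FPKM untreated and 57.2 FPKM after 24 h (log2 difference of 1.00 after rounding, just inside the limit, with overlapping intervals).

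The posterior streak and direct BMP target lists had the opposite direction after 24 h. Of 11 posterior genes compared (16 listed) 8 were higher and 0 lower (median 2.13), beside 0.654% and 0.527% of all genes. Only T (Brachyury) had intervals apart among the 8, at 11.9, 10.6 and 89.2 FPKM at 0, 1.5 and 24 h. Mesp1, Evx1 and Cdx2 pass the mean only through the 24 h library. Of 5 BMP targets compared (6 listed) 4 were higher, 3 of them with intervals apart (median 2.07). At 1.5 h 3 were higher, 2 of them with intervals apart, beside 0.236% and 0.0273% of all genes. Id1 stood at 14.1 FPKM untreated, 184 after 1.5 h and 199 after 24 h. At 1.5 h, then, Id1 was near its 24 h level. The 9 genes differed at that time: Cer1 was at 83.1%, Lefty1 at 51.1% and Foxa2 at 30.7% of the untreated FPKM, with overlapping intervals. Posterior genes and the 9 genes were both listed with earlier results of these libraries known.

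**Figure D4:**
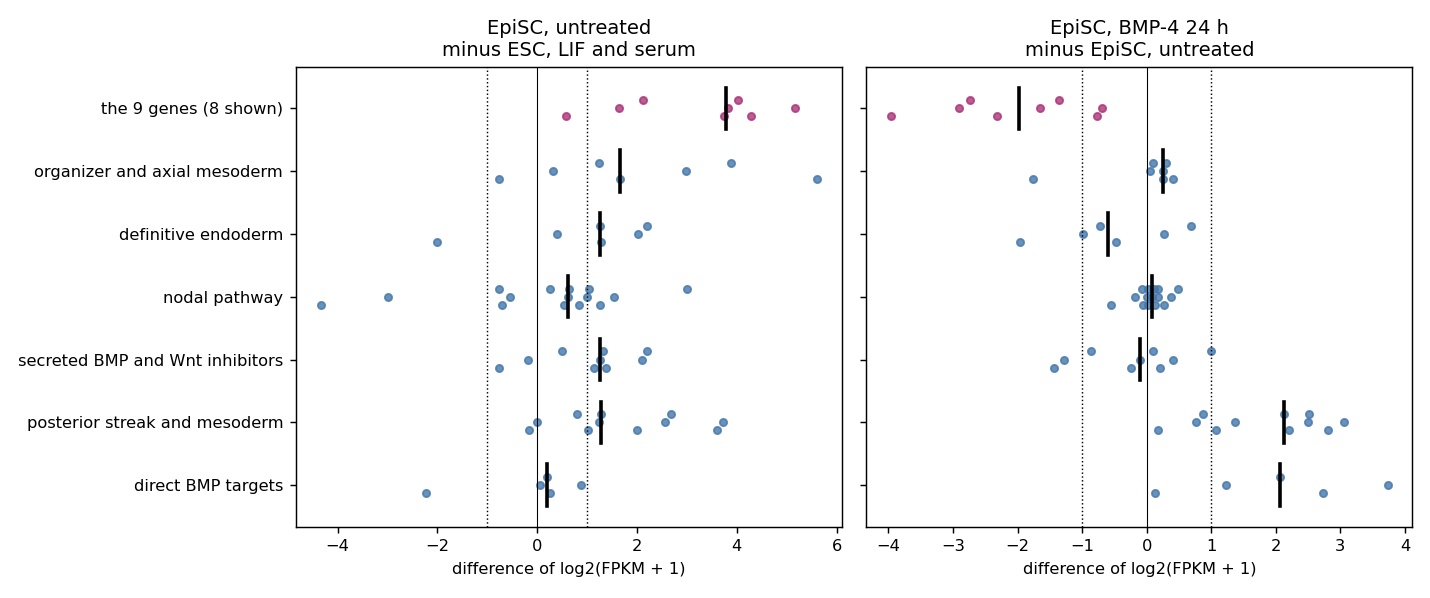
Difference of log2(FPKM + 1) per gene (horizontal axis) for the genes above a mean of 1 FPKM in each list, for untreated EpiSCs minus ESCs in LIF and serum (left) and for EpiSCs after 24 h of BMP-4 minus untreated (right). Each point is 1 gene, black bars are list medians and dotted lines mark 2-fold, with a different horizontal scale in each panel; on the right the purple points lie between -3.96 and -0.69 and the Nodal pathway is centred at 0.08.

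Genes with the most similar pattern over the 5 libraries were found by the root mean square distance between log2(FPKM + 1) profiles, each centred on its own mean, among 8246 genes. The nearest to Lefty1 were Gsc (0.28), Foxa2 (0.40), Lhx1 (0.43), Cyp26a1 (0.55) and Klhl4 (0.55). The nearest to Gsc were Lefty1 (0.28), Lhx1 (0.44), Slc27a2 (0.52), Foxa2 (0.54) and Klhl4 (0.56). For Cer1 they were Gsc (0.66), Lefty1 (0.72), Lhx1 (0.96), Mmp25 (1.05) and Foxa2 (1.10), so no profile was as close to it as Gsc was to Lefty1. The retinoic acid-degrading enzyme gene Cyp26a1 was listed at 0 in both ESC libraries and stood at 10.5, 7.38 and 3.82 FPKM in EpiSCs at 0, 1.5 and 24 h. The matrix metalloprotease gene Mmp25 stood at 0.137 and 0.131 FPKM in ESCs and 31.5, 29.5 and 13.8 FPKM in EpiSCs. Hhex was far from all of them, at a distance of 1.34 from Lefty1.

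Because several of these genes also mark extraembryonic endoderm, 15 markers of that tissue were read in the same libraries. They summed to 2.82 FPKM in ESCs with serum, 4.84 in ESCs with BMP-4, and 8.74, 11.4 and 8.11 FPKM in EpiSCs at 0, 1.5 and 24 h, where 5, 4 and 5 of the 15 reached 1 FPKM. Afp was listed at 0 in the first 4 libraries and at 0.0368 FPKM after 24 h, Ttr stood at 0, 0.0831 and 1.16 FPKM in EpiSCs at 0, 1.5 and 24 h, and Sox7 was at or below 0.0275 FPKM in EpiSCs. Other markers of the list stood higher when untreated EpiSCs were compared with ESCs in serum, with overlapping intervals: Gata6 stood at 1.89 against 0.218 FPKM, Gata4 at 1.59 against 0.0682, Pth1r at 1.63 against 0.108 and Apoa1 at 1.81 against 0. Some went the other way, among them Hnf4a and Sox7, both at 0 in untreated EpiSCs. In ESCs with serum and with BMP-4, Hnf4a stood at 0.758 and 2.42 FPKM and Sox7 at 0.532 and 0.473 FPKM. Only the Hnf4a interval in ESCs with BMP-4 lay apart from the untreated EpiSC one. Apoa1 was lower again at 24 h, at 0.355 FPKM, with overlapping intervals, while Gata4 stood at 2.13, Pth1r at 1.59 and Gata6 at 1.06 FPKM. The sums at 0 and 24 h, 8.74 and 8.11 FPKM, cover single markers that stood lower at 24 h (Apoa1 and Gata6) and higher (Ttr and Gata4), all with overlapping intervals. The primed markers summed to 733, 658 and 532 FPKM in EpiSCs at 0, 1.5 and 24 h, and Pou5f1 stood at 1264, 1242 and 1208 FPKM. The part of these markers in the lower Cer1, Lefty1 and Gsc was not tested. The 6 trophoblast markers summed to 7.51 and 11.9 FPKM in ESCs with serum and with BMP-4, and to 35.5, 29.9 and 43.5 FPKM in EpiSCs at 0, 1.5 and 24 h, most of it Eomes, which the streak also expresses. Among them Krt7 stood at 5.25, 3.54 and 1 FPKM in EpiSCs at 0, 1.5 and 24 h, with overlapping intervals. It was lower at each later time, as were Cer1, Lefty1 and Gsc. Tfap2c stood at 6.1, 6.11 and 12.7 FPKM, and Elf5 was at or below 0.0361 FPKM in all libraries. The part of the 6 trophoblast markers in the values of the 9 genes was not tested either. Neural markers other than Tubb3 stayed under 1 FPKM in EpiSCs.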

How the data were processed

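Poly(A) RNA of 5 cultures was sequenced as directional libraries, per the labels' protocols. The authors deposited FPKM per gene with a lower and an upper bound and a status, per the file headers. TopHat, Cufflinks 2.0.13, Picard and SAMtools and the mm9 build are named in the submitters' processing notes. The annotation, the filters, the scaling between libraries and the model behind the bounds are left unstated in the sources used here. Of 23951 genes 8 had a status other than OK in some library, none of the 9 described, and were left out of comparisons with it.

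Differences were taken as log2(FPKM + 1) between 2 libraries over genes whose FPKM averaged 1 or more across the 5 libraries (Python 3.11.15, pandas 2.3.3). A check on simulated data planted folds well past the 2-fold limit, with noise far below the deposited intervals. It used only genes of at least 5 FPKM in untreated EpiSCs. It therefore covers the calculation, not the reliability of calls near 2-fold or at low values. No fold is given against a value of 0. Positions are written from 1. Depth was estimated from GENCODE M21 genes with 1 transcript longer than 1500 nt, by the most frequent product of low FPKM and length; between 68.1% and 71.3% of values up to about 3 reads lay within 0.1 of a whole read, so depth and read numbers are approximate. The genes, lists and motifs were chosen with earlier results of these data known. Named genes are the 9, list members by size, markers, Lefty2 and the 5 nearest profiles to Cer1, Lefty1 and Gsc among genes reaching 5 FPKM that are neither small RNAs nor predicted. Thpo, Nodal, Shh and Noto were named after their values were seen. Other pseudocounts, filters, scalings and a call by intervals were tried.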

Additional observations from a re-analysis of the deposited data

How the results depend on the processing

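No paired analysis was possible because groups have 1 library each, and for the same reason no replicate could be left out. Counts of the 9 genes at least 2-fold apart were the same, or within 1.5 times, in all 6 comparisons with a pseudocount of 0.1 or 5, with no filter, and with scaling by the median of ratios or the upper quartile. Under a mean of at least 5 FPKM, 4 genes were higher in untreated EpiSCs than in either ESC library and 0 were lower after 1.5 h, as fewer genes pass. With intervals apart also required, 0 were lower after 1.5 h, 3 after 24 h and 1 at 24 h against 1.5 h. No called difference turned its direction. A pseudocount of 0.1 or 5 moved 10 and 8 single differences by more than the deposited intervals, all of them in Cer1, Foxa2, Lhx1 or Sox17 in comparisons with ESC values at or near 0. Upper quartile scaling put the median of all genes at 0.12 for untreated EpiSCs against ESCs in serum, from -0.01. Low values have wide intervals: at 1 to 5 FPKM, the range of Chrd and Sox17 in untreated EpiSCs, the upper bound lay a median of 111% above the value in that library.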
